A study of Mus musculus with 8 samples.

Results

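The G2 and mitosis genes are 36 mouse genes whose products carry a cell from the end of DNA replication through chromosome segregation and cell separation. They were taken by symbol from the 46983 genes of the deposited count table, all 36 were found, and all 36 were abundant enough to be among the 15175 genes tested. Messenger RNA had been counted in 8 libraries of B cells taken from the bone marrow of wild-type animals, sorted with magnetic beads and kept under hypoxia. Of these, 4 libraries came from cells given estrogen (Estrogen 1 to 4) and 4 from cells given the vehicle (Vehicle 1 to 4), and the comparison asks what estrogen changes in hypoxic B cells. Genotype (WT), hypoxia and cell type are the same in both groups, so hypoxia itself cannot be examined. Neither the labels nor the methods give the age or sex of these mice, or say that each library was made from its own animal or culture. The p-values below therefore reflect only how far these 8 libraries scatter, and how much of that scatter is technical is not known. A magnetic sort for B cells takes every stage of the lineage in the marrow together, from cycling precursors to resting mature cells.

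Cells enter mitosis when cyclin-dependent kinase 1, bound to cyclin A or B, is switched on by CDC25 phosphatases, and they leave it when the anaphase-promoting complex marks cyclin B and securin for destruction. The messenger RNAs of this machinery are made mainly in G2 and mitosis, because their promoters are held silent in resting cells by the DREAM complex and are switched on later by B-MYB, the MuvB core and FOXM1. In bone marrow, cycling B lineage cells are mainly pro-B and large pre-B cells, while small pre-B, immature and mature B cells mostly rest, so in bulk RNA the level of these genes depends on how many of the sorted cells are in cycle. A smaller share of cycling cells and less RNA per cycling cell cannot be told apart in these data.

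No G2 and mitosis gene passed the test between Estrogen and Vehicle, and the summed levels of the groups overlapped. Added up over the 36 genes, the level was 942.6, 989.7, 975.2 and 1539 CPM in Estrogen 1 to 4, against 951.8, 1109, 897.8 and 1297 CPM in Vehicle 1 to 4, where CPM is a gene's read count per 1000000 library reads after TMM scaling. The means were 1112 ± 286 CPM in Estrogen and 1064 ± 179 CPM in Vehicle (SD, n = 4 each), a difference well inside the spread of either group. The 36 genes took 0.0919, 0.104, 0.0981 and 0.161% of all counts in Estrogen 1 to 4, against 0.0898, 0.109, 0.0874 and 0.133% in Vehicle 1 to 4. Of the 36 genes, 0 passed edgeR's quasi-likelihood test at a Benjamini-Hochberg adjusted p of 0.05, beside 0% of all genes tested. At an unadjusted p of 0.05 there were 0 of 36, beside 3.53% of all genes tested (2.27% higher and 1.26% lower in Estrogen), and the DESeq2 Wald test (beside 0.00659% of all genes) and limma-voom each called 0 of the 36 as well. The wider difference lay between libraries of the same group, with Estrogen 4 highest of all 8 libraries in 33 of the 36 genes.

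**Figure D1:**
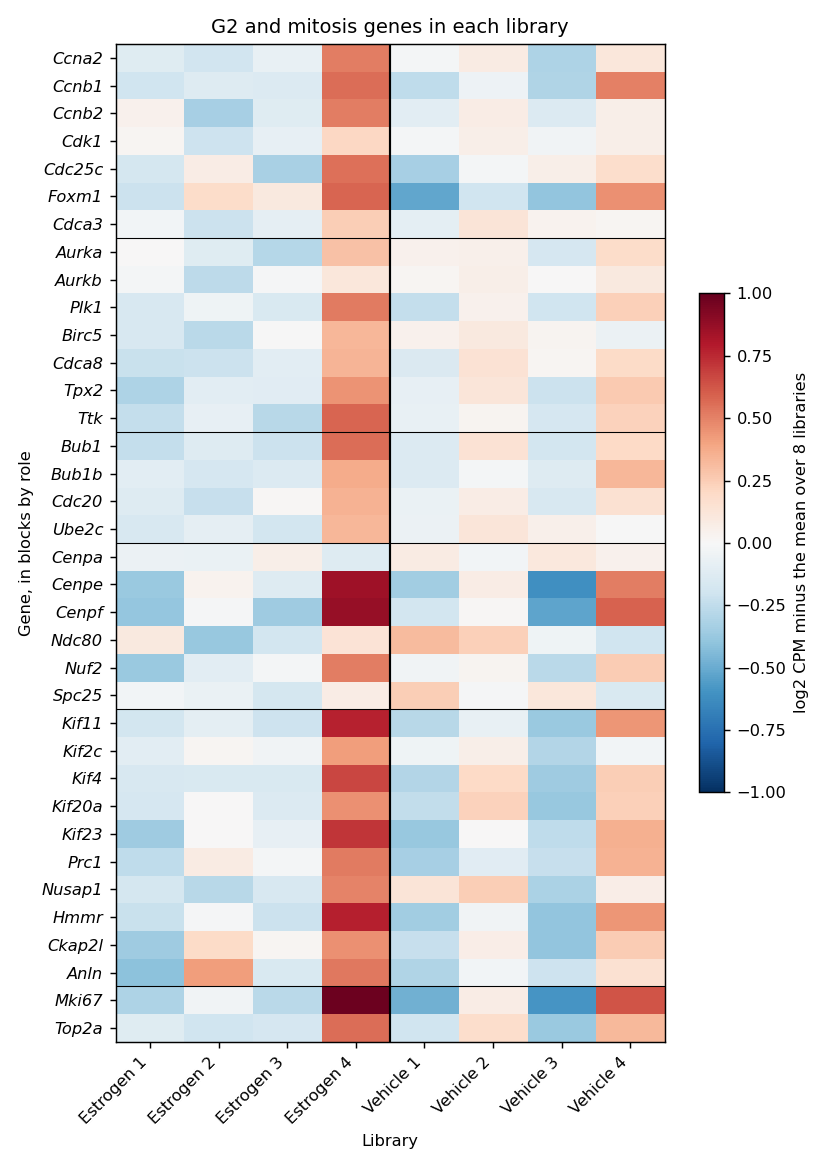
Level of each of the 36 genes (rows, in blocks by role) in each of the 8 libraries (columns, Estrogen left of Vehicle), as log2 CPM minus the gene's mean over the 8 libraries, with red above and blue below that mean. The Estrogen 4 column is red for nearly every gene, with Cenpa the exception, and the Vehicle 4 column is mostly red.

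The libraries held 30181834 to 34236361 reads in Estrogen and 32484430 to 39088597 reads in Vehicle, so that a detection floor of 3 reads amounts to 0.078 to 0.102 CPM. The members were counted with 88 to 8193 reads per library, far above that floor, which covers counting error only. All 12 genes of a B lineage marker list were expressed in every library, Pax5, the transcription factor that fixes B cell identity, at 889 ± 139 CPM in Estrogen and 1042 ± 137 CPM in Vehicle (SD, n = 4 each). The libraries held RNA of other marrow cells too, and in Estrogen 2 the sum of 8 neutrophil genes (9497 CPM) was above that of the 12 B lineage genes (9279 CPM). Vehicle 3 stood apart in sex-linked genes, with 9842 reads over 4 Y-linked genes (Ddx3y, Eif2s3y, Kdm5d and Uty) and 2.39 CPM of Xist, which coats the silenced X chromosome. The other 7 libraries held at most 34 such reads and at least 470.2 CPM of Xist. Vehicle 3 thus had the expression of male cells and the other 7 that of female cells, so sex was not balanced between the groups. Estrogen 4 and Vehicle 4 stood apart in the G2 and mitosis genes themselves. The counts over the members, and the named members whose sign turns from positive to negative, are given with and without these libraries.

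Promoters of members are shown first because many share the same short elements. RefSeq promoters on GRCm38.p6, 250 bases before to 50 bases after the start of transcription, were matched for 30 of the 36 members. The cell cycle genes homology region (CHR, TTTGAA) is the element through which DREAM and the B-MYB and MuvB complex bind. It was found on either strand in 24 of the 30 members (80.0%), beside 20.2% of the 27025 genes with a promoter of that length. Within 50 bases of the start it was found in 22 members (73.3%), beside 5.7% of all genes. CCAAT, the binding motif of NF-Y, was found on either strand in 24 members (80.0%, beside 41.1%), and both CHR and CCAAT in 1 promoter in 21 members (70.0%, beside 8.0%). The E2F motif TTTCGCG was found in 2 members, Cdca8 and Cdk1 (6.7%, beside 1.0%), and the short G-rich core GGCGGG in 22 (73.3%, beside 37.9%). The CHR variant TTCGAA was found in 3 (Bub1, Bub1b and Top2a, 10% beside 1.8%), and Birc5, Ccnb1, Cenpe, Nuf2 and Nusap1 held neither TTTGAA nor TTCGAA in this window. The only overlap between different motifs was 1 shared base of CHR and CCAAT in Cdca8. A match is a match of letters and not a measured binding site.

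The sequences below are the 150 bases upstream of the start of 6 members, written 5′ to 3′ on the strand of the gene, with CHR (TTTGAA or its reverse complement) and CCAAT (or its reverse complement) in capitals. Cdk1 (chr10:69352913-69353062, minus strand), Cdc20 (chr4:118437344-118437493, minus strand) and Ube2c (chr2:164769779-164769928, plus strand) stand for genes with CHR close to the start. Kif11 (chr19:37376232-37376381, plus strand), Mki67 (chr7:135716380-135716529, minus strand) and Top2a (chr11:99024190-99024339, minus strand) were chosen after their values were seen, because their levels differed widely between libraries.
Cdk1: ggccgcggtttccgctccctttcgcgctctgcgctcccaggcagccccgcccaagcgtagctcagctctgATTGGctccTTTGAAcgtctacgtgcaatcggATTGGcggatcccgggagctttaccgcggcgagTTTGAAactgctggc
Cdc20: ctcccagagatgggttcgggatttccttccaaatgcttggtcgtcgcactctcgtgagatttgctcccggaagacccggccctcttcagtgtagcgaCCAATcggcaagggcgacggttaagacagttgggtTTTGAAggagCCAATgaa
Ube2c: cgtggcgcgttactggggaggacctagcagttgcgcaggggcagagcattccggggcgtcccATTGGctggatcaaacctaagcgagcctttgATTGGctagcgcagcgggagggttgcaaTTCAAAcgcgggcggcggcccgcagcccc
Kif11: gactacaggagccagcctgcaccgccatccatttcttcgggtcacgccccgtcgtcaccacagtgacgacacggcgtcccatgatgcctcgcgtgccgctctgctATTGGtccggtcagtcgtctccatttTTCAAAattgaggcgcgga
Mki67: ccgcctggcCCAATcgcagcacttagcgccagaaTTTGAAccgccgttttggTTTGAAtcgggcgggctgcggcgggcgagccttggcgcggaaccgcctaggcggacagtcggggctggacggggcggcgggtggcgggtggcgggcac
Top2a: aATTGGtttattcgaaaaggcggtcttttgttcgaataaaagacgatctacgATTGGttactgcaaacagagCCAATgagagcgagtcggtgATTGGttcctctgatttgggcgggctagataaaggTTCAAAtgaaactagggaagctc
CHR began 15 and 71 bases before the start of Cdk1, 18 before that of Cdc20, 29 before that of Ube2c, 19 before that of Kif11 and 23 before that of Top2a. In Mki67 CHR began further out, 116 and 98 bases before the start.

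The cyclins, CDK1 and their switches (7 genes) include the kinase that drives entry into mitosis and its partners. Their summed level was 157, 155, 161 and 233 CPM in Estrogen 1 to 4, against 148, 169, 145 and 197 CPM in Vehicle 1 to 4. Fitted log2 differences, Estrogen minus Vehicle here and throughout, were positive in 5 of 7 with a median of 0.083, beside a median of -0.0054 over all genes tested, and in 2 of 7 when Estrogen 4 and Vehicle 4 were both left out. None passed the test. Ccna2 (ENSMUSG00000027715, chromosome 3, 36564865 to 36572150, minus strand, GRCm38 here and below), which encodes cyclin A2 of S and G2 phase, was at 35.9, 34.2, 37.2 and 55.9 CPM in Estrogen 1 to 4, against 38.6, 41.5, 31.6 and 42.3 CPM in Vehicle 1 to 4. Estrogen 4 lay above the 7 other libraries, which overlapped, and the fitted difference was 0.08 ± 0.17 (SE). Ccnb1 (ENSMUSG00000041431, chromosome 13, 100778650 to 100786570, minus strand), cyclin B1, was at 21.9, 23.0, 22.9 and 37.0 CPM in Estrogen 1 to 4, against 21.1, 24.3, 20.4 and 35.7 CPM in Vehicle 1 to 4. Here the number 4 library was far above the other 3 in both groups, and the fitted difference was 0.05 ± 0.23. Its counts are less certain than those of most members, because 23.4% of the 50-base windows of its transcripts also occur in other genes, foremost the pseudogene Ccnb1-ps.

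Cdk1 (ENSMUSG00000019942, chromosome 10, 69335146 to 69352938, minus strand), the kinase itself, varied little, at 18.9, 16.1, 17.6 and 21.5 CPM in Estrogen 1 to 4, against 18.4, 19.4, 18.2 and 19.4 CPM in Vehicle 1 to 4. Its fitted difference was -0.03 ± 0.11, with a 95% interval from -0.28 to 0.23. Foxm1 (ENSMUSG00000001517, chromosome 6, 128362967 to 128376146, plus strand), the transcription factor that activates genes of this kind in G2, had the largest fitted difference of the 36. It was at 30.1, 39.6, 37.3 and 52.1 CPM in Estrogen 1 to 4, against 24.4, 30.4, 26.6 and 48.0 CPM in Vehicle 1 to 4. Estrogen 1 to 3 overlapped with Vehicle 1 to 3 only through Estrogen 1 and Vehicle 2, while Vehicle 4 lay above Estrogen 1 to 3. The fitted difference was 0.30 ± 0.23 (95% interval -0.22 to 0.82, edgeR with Benjamini-Hochberg adjustment, adjusted p = 0.86), and the exact two-sided permutation test gave p = 0.286. It rested on single libraries, at 0.15 without Estrogen 4 and 0.55 without Vehicle 4, and it was 0.40 ± 0.14 with both left out (edgeR unadjusted p = 0.0215, adjusted p = 0.629). Foxm1 overlaps Tex52 on its own strand. Ccnb2, cyclin B2, averaged 26.4 ± 6.93 CPM in Estrogen and 24.8 ± 1.84 CPM in Vehicle. Cdc25c, a phosphatase that activates CDK1, was the least abundant member at 3.55 ± 0.996 CPM in Estrogen and 3.33 ± 0.478 CPM in Vehicle. Cdca3, a mitotic entry factor, averaged 20.9 ± 2.95 CPM in Estrogen and 21.4 ± 1.33 CPM in Vehicle (SD, n = 4 each).

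**Figure D2:**
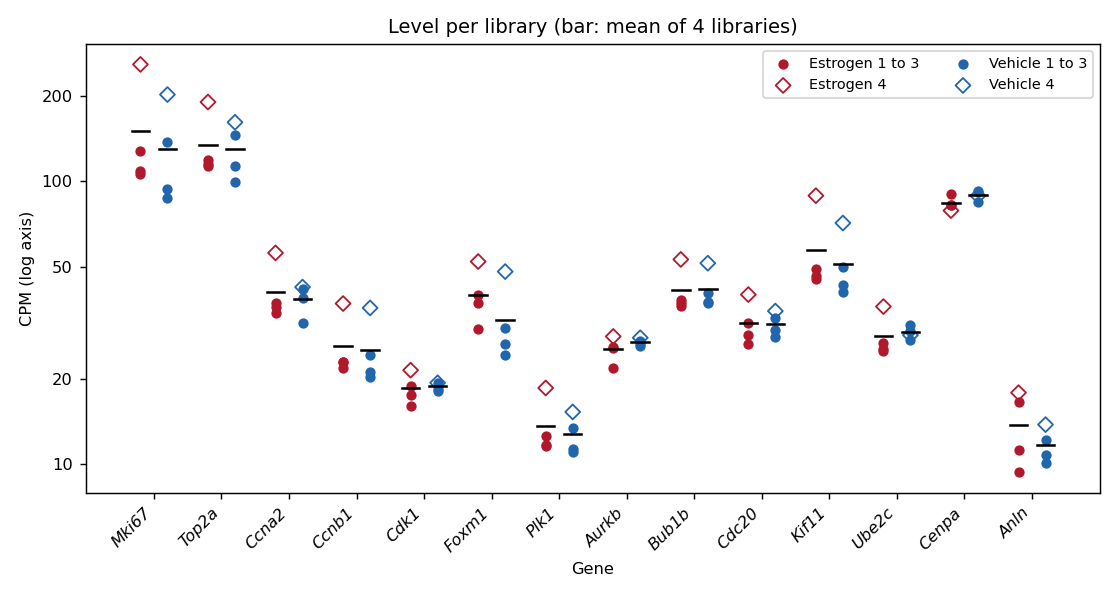
CPM (log axis) of 14 members in each library, Estrogen left of Vehicle within each gene, with circles for libraries 1 to 3, open diamonds for library 4 and a bar for the mean of 4 libraries. For Mki67 the Estrogen 4 diamond is at 259.6 CPM and the Vehicle 4 diamond at 203 CPM, above all other libraries, whereas the 8 points of Cenpa lie between 78.9 and 92.8 CPM.

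The mitotic kinases and the passenger complex (7 genes) summed to 114, 113, 119 and 162 CPM in Estrogen 1 to 4, against 123, 136, 120 and 143 CPM in Vehicle 1 to 4. Only 2 of 7 had a positive fitted difference (median -0.037), and 1 of 7 without the number 4 libraries. Plk1 (ENSMUSG00000030867, chromosome 7, 122159439 to 122169873, plus strand), a kinase of centrosome maturation and spindle assembly, was at 11.6, 12.6, 11.7 and 18.6 CPM in Estrogen 1 to 4, against 11.0, 13.4, 11.3 and 15.3 CPM in Vehicle 1 to 4. The number 4 library was highest in both groups, and the fitted difference was 0.10 ± 0.19. Of the windows of Plk1, 6.6% are shared, mainly with the pseudogene Plk-ps1. Aurkb (ENSMUSG00000020897, chromosome 11, 69045647 to 69051664, plus strand), the kinase of the chromosomal passenger complex that corrects attachments to the spindle, was steadier. It was at 25.8, 21.9, 26 and 28.3 CPM in Estrogen 1 to 4, against 26.6, 27.3, 26.2 and 28.0 CPM in Vehicle 1 to 4. Estrogen 2 was the lowest library, the groups overlapped through Estrogen 4, and the fitted difference was -0.08 ± 0.10 (95% interval -0.31 to 0.15). Birc5 (survivin) and Cdca8 (borealin), its partners in that complex, had fitted differences of -0.04 ± 0.14 and -0.09 ± 0.15. Aurka, the kinase of spindle poles, and Tpx2, which activates it on microtubules, differed by -0.04 ± 0.15 and -0.02 ± 0.17, and Ttk, the checkpoint kinase MPS1, by 0.03 ± 0.22.

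The checkpoint and the anaphase-promoting complex are represented by 4 genes, whose fitted differences ran from -0.04 to 0.02, the narrowest range of the 6 roles, with 2 of 4 positive and 0 of 4 without the number 4 libraries. Their sum was 103, 102, 105 and 148 CPM in Estrogen 1 to 4, against 107, 119, 107 and 130 CPM in Vehicle 1 to 4. Bub1b (ENSMUSG00000040084, chromosome 2, 118598211 to 118641591, plus strand), the BUBR1 subunit of the mitotic checkpoint complex, was at 38.0, 36.4, 37.2 and 53.0 CPM in Estrogen 1 to 4, against 37.3, 40.3, 37.4 and 51.4 CPM in Vehicle 1 to 4. The 3 other libraries of each group lay within a few CPM of each other and the number 4 libraries lay clear above them, with a fitted difference of -0.02 ± 0.15. Bub1, a checkpoint kinase at the kinetochore, showed the same order, with 19.4 CPM in Estrogen 4 and 15.2 CPM in Vehicle 4, each the highest of its group. Cdc20 (ENSMUSG00000006398, chromosome 4, 118432901 to 118437352, minus strand), the activator of the anaphase-promoting complex, was at 28.7, 26.7, 31.6 and 39.8 CPM in Estrogen 1 to 4, against 29.9, 32.9, 28.1 and 34.8 CPM in Vehicle 1 to 4, a fitted difference of 0.01 ± 0.14. Ube2c (ENSMUSG00000001403, chromosome 2, 164769898 to 164778822, plus strand), the enzyme that hands ubiquitin to that complex, was at 25.6, 26.9, 25.2 and 36.1 CPM in Estrogen 1 to 4, against 27.5, 31.1, 29.7 and 28.6 CPM in Vehicle 1 to 4. Estrogen 1 to 3 all lay below Vehicle 1 to 4, Estrogen 4 lay above them, and the fitted difference was -0.04 ± 0.13. Cdc20 shares 10.4% of its windows with other genes, mainly Gm7856, and overlaps Elovl1 on the opposite strand, as Ube2c does Tnnc2. Since the sources used here do not say whether strand was used in counting, reads of such partners cannot be told apart.

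The kinetochore and centromere genes (6 genes) had 3 positive and 3 negative fitted differences, from -0.16 for Ndc80 to 0.21 for Cenpe, and 1 of 6 was positive without the number 4 libraries. Cenpa (ENSMUSG00000029177, chromosome 5, 30666777 to 30674830, plus strand), the histone H3 variant that marks the centromere, was the member with the smallest p. It was at 82.9, 82.6, 90 and 78.9 CPM in Estrogen 1 to 4, against 91.7, 84.8, 92.8 and 89.0 CPM in Vehicle 1 to 4. Estrogen 3 lay among the Vehicle libraries and the other Estrogen libraries lay below all of them, with Estrogen 4 the lowest of all 8. The means were 83.6 ± 4.63 CPM in Estrogen and 89.6 ± 3.53 CPM in Vehicle (SD, n = 4 each), and this was the only member whose difference of means exceeded the SD of both groups. The fitted difference was -0.10 ± 0.08 (95% interval -0.27 to 0.07, edgeR adjusted p = 0.86 after Benjamini-Hochberg adjustment), and the exact two-sided permutation test gave p = 0.0857, where 4 against 4 libraries can reach 0.0286. Ndc80 and Spc25, subunits of the complex that grips microtubules, were at 23.0 ± 3.79 and 10.2 ± 0.708 CPM in Estrogen and at 25.7 ± 4.19 and 10.9 ± 1.27 CPM in Vehicle, and in both Vehicle 1 was the highest library. Nuf2, of the same complex, was at 14.7 ± 4.01 CPM in Estrogen and 14.4 ± 2.13 CPM in Vehicle, with Estrogen 4 highest. Cenpe, a kinetochore motor, ranged from 16.5 to 38.3 CPM in Estrogen and from 13.9 to 30.3 CPM in Vehicle. Cenpf, a large kinetochore and nuclear matrix protein, ranged from 18.3 to 43.7 CPM in Estrogen and from 16.6 to 36.1 CPM in Vehicle. In both genes the number 4 library was the highest of its group.

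The spindle motors and microtubule proteins (10 genes) had a positive fitted difference in 9 of 10, with a median of 0.162, and in 8 of 10 without the number 4 libraries. When single libraries were left out, Kif11 fell to -0.13 at the lowest, Kif4 to -0.13, Kif20a to -0.08, Kif23 to -0.09 and Hmmr to -0.1. Kif2c, Prc1, Ckap2l and Anln did not turn negative. None of the 10 passed the test, with a smallest unadjusted edgeR p of 0.315. Kif11 (ENSMUSG00000012443, chromosome 19, 37376403 to 37421859, plus strand), the motor that pushes spindle poles apart, was at 46.2, 48.9, 45.3 and 89.1 CPM in Estrogen 1 to 4, against 43.2, 49.8, 40.6 and 71.3 CPM in Vehicle 1 to 4. Libraries 1 to 3 of both groups lay together, the number 4 libraries lay well above, and the fitted difference was 0.16 ± 0.25. Anln (ENSMUSG00000036777, chromosome 9, 22332012 to 22389188, minus strand), the scaffold of the contractile ring in cytokinesis, was at 9.35, 16.6, 11.2 and 17.9 CPM in Estrogen 1 to 4, against 10.1, 12.2, 10.8 and 13.8 CPM in Vehicle 1 to 4. Estrogen 2 and 4 lay above all Vehicle libraries and Estrogen 1 below all of them, and the fitted difference was 0.23 ± 0.22 (95% interval -0.26 to 0.72). The midzone proteins Prc1, Kif4, Kif20a and Kif23, which bundle antiparallel microtubules and build the cleavage site, had fitted differences between 0.07 and 0.17. Kif2c, which removes misattached microtubules at centromeres, differed by 0.16 ± 0.16. Hmmr and Ckap2l, spindle-associated proteins, differed by 0.19 ± 0.27 and 0.16 ± 0.20. Nusap1, which bundles microtubules around chromosomes, was the exception at -0.04 ± 0.19. Prc1 overlaps Rccd1, Kif4 overlaps Pdzd11, Kif20a overlaps Cdc23 and Nusap1 overlaps Oip5 on the opposite strand.

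Mki67 and Top2a, the marks by which cycling cells are usually recognised, both had a positive fitted difference, and 1 of 2 did without the number 4 libraries. Mki67 (ENSMUSG00000031004, chromosome 7, 135689784 to 135716361, minus strand), which encodes the Ki-67 protein that coats mitotic chromosomes, was at 106, 128, 109 and 259.6 CPM in Estrogen 1 to 4, against 94.0, 138, 87.1 and 203 CPM in Vehicle 1 to 4. Estrogen 1 to 3 lay within the range of Vehicle 1 to 3, and both number 4 libraries lay far above. The fitted difference was 0.21 ± 0.35, with the widest 95% interval of the 36 members, from -0.57 to 0.99. Top2a (ENSMUSG00000020914, chromosome 11, 98992943 to 99024189, minus strand), the topoisomerase that untangles sister chromatids, was at 119, 113, 115 and 191 CPM in Estrogen 1 to 4, against 113, 146, 99.9 and 162 CPM in Vehicle 1 to 4, a fitted difference of 0.05 ± 0.21. Per kilobase of annotated exons, a rough scale for comparing genes, Ccnb2 (17.3 CPM per kb in Estrogen and 16.2 in Vehicle) and Cdc20 (17 in Estrogen and 16.8 in Vehicle) were the most abundant of the 36 by group mean in both groups. The length used counts every annotated exon of a gene, whichever transcript was expressed. Mki67 stood at 15 CPM per kb in Estrogen and 13 in Vehicle, and Cenpa at 14.3 in Estrogen and 15.3 in Vehicle. Cdc25c, at 0.721 CPM per kb in Estrogen and 0.678 in Vehicle, was the least.

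Over all 36 members, the fitted log2 differences ran from -0.16 for Ndc80 to 0.30 for Foxm1, with 23 positive, 13 negative and a median of 0.048, beside 48.9% positive and a median of -0.0054 over all genes tested. This split rested on few libraries. Without Estrogen 4, 5 of 36 were positive with a median of -0.128, without Vehicle 3 there were 15 with a median of -0.018, and without both Estrogen 4 and Vehicle 4 there were 13 with a median of -0.046. Without Vehicle 4 alone the count rose to 26, with a median of 0.131. Of the 14 members given library by library, 7 turned from a positive to a negative fitted difference without Estrogen 4, namely Ccna2 (-0.10), Ccnb1 (-0.16), Plk1 (-0.08), Cdc20 (-0.11), Kif11 (-0.13), Mki67 (-0.19) and Top2a (-0.16). Without Vehicle 3, Ccnb1 (-0.03), Cdc20 (-0.02) and Top2a (-0.04) turned negative, and Mki67 was at 0.07. Without both number 4 libraries, Ccna2 (-0.05), Cdc20 (-0.06) and Top2a (-0.04) were negative and Mki67 was at 0.11. Bub1b, Cdk1 and Ube2c, negative in the main fit, reached at most 0.10, 0.04 and 0.02 when single libraries were left out. The smallest unadjusted edgeR p among the 36 was 0.218, and the Benjamini-Hochberg adjusted p-values of edgeR ran from 0.86 to 0.984. The groups overlapped in all 36 members, beside 1.67% of all genes tested whose groups did not overlap (0.771% lower and 0.896% higher in Estrogen). The intervals show what the main fit could resolve: the 95% interval excluded a 2-fold difference in either direction in all 36 members, while it included a 1.5-fold difference in 12. For Mki67 it came close to 2-fold, with an upper limit of 0.99. Intervals of the alternative fits are not given here. In 33 of 36 the SD was larger in Estrogen than in Vehicle. When both number 4 libraries were left out, 0 members passed the adjusted test, 1 (Foxm1) was below an unadjusted edgeR p of 0.05, beside 6.38% of all genes tested in that fit, and 4 (Aurkb, Birc5, Ube2c and Spc25) were lower in Estrogen without overlap, beside 12% of all genes.

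**Figure D3:**
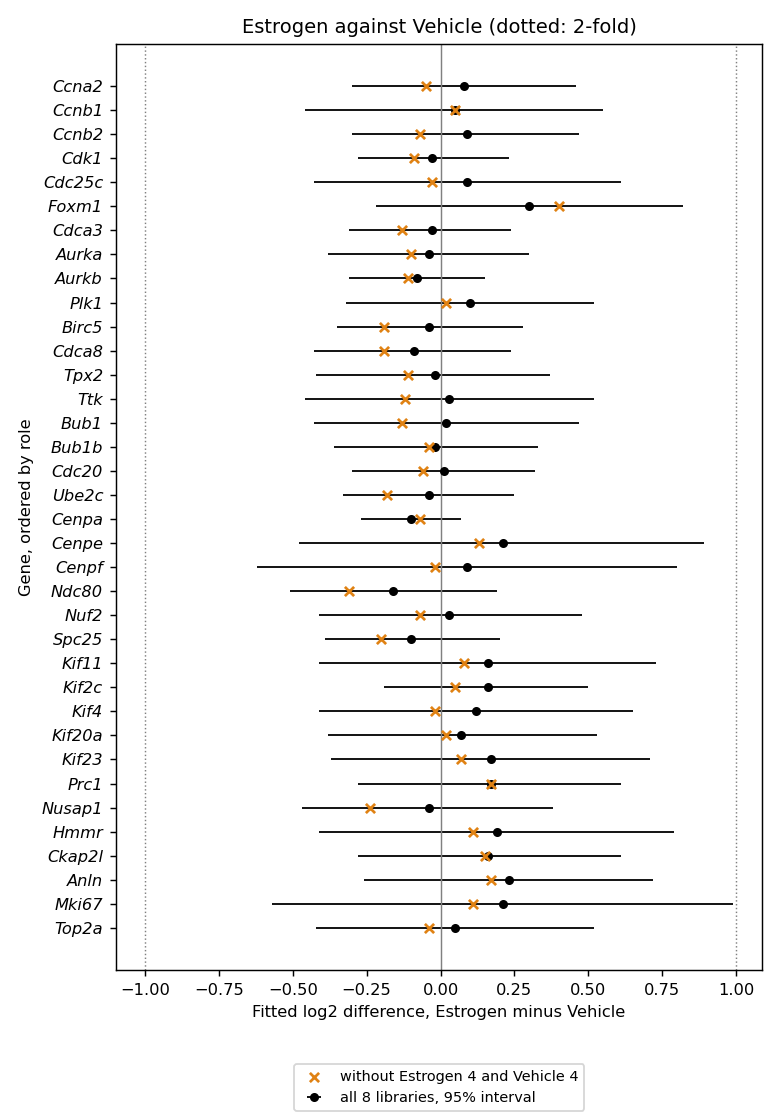
Fitted log2 difference, Estrogen minus Vehicle, for each of the 36 members (black points with 95% intervals, all 8 libraries), and the same without Estrogen 4 and Vehicle 4 (orange crosses). Every black interval holds 0 and lies inside the dotted lines of a 2-fold difference, and most crosses lie to the left of their points.

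The differences between libraries of a group had a common pattern. Estrogen 4 was the highest Estrogen library in 35 of 36 members and Vehicle 4 the highest Vehicle library in 26, while Vehicle 3 was the lowest Vehicle library in 22. Estrogen 4 held 1.52 times the mean of Estrogen 1 to 3 at the median over members, from 0.926 times for Cenpa to 2.27 times for Mki67, and above 1 in 35 members. Vehicle 4 held 1.23 times the mean of Vehicle 1 to 3 at the median, from 0.772 times for Ndc80 to 1.91 times for Mki67, and above 1 in 30. Cenpf followed Mki67 in Estrogen 4, at 2.16 times, and Foxm1 in Vehicle 4, at 1.77 times. Vehicle 4 lay below the mean of Vehicle 1 to 3 in 6 members (Ndc80, Spc25, Birc5, Ube2c, Cenpa and Cdca3), and Estrogen 4 below that of Estrogen 1 to 3 in Cenpa. These are descriptions of single libraries, with no test.

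The spread between libraries was wider in longer genes. The highest CPM over the lowest among the 8 libraries ran from 1.18 for Cenpa to 2.98 for Mki67, was at most 1.5 in 10 members, and was over 2 in 8 (Mki67, Cenpe, Cenpf, Hmmr, Kif11, Foxm1, Kif23 and Kif4). Across the 36 members it correlated with annotated exon length at a Spearman rho of 0.63 and, on log scales, a Pearson r of 0.61; the members share the same 8 libraries, so no p is given. The genes tested as a whole showed a length trend between libraries too. In Vehicle 4, measured against the other Vehicle libraries, the median log2 deviation was -0.20 in the shortest genes (up to 2130 bases) and 0.21 in the longest (from 6220 bases), in Vehicle 3 it was 0.13 and -0.13, in Estrogen 4 -0.08 and 0.09, and in Estrogen 1 0.16 and -0.10. Measured the same way, the members' median deviation was 0.60 in Estrogen 4 (0.58 after the trend with length was taken out), 0.31 in Vehicle 4 (0.28 after) and -0.25 in Vehicle 3 (-0.29 after). With the trend taken out, Estrogen 4 was still the highest library in 32 members. In a fit with the length trend as an offset, chosen after the data were seen, 0 members passed, 20 were positive and the median was 0.028.

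**Figure D4:**
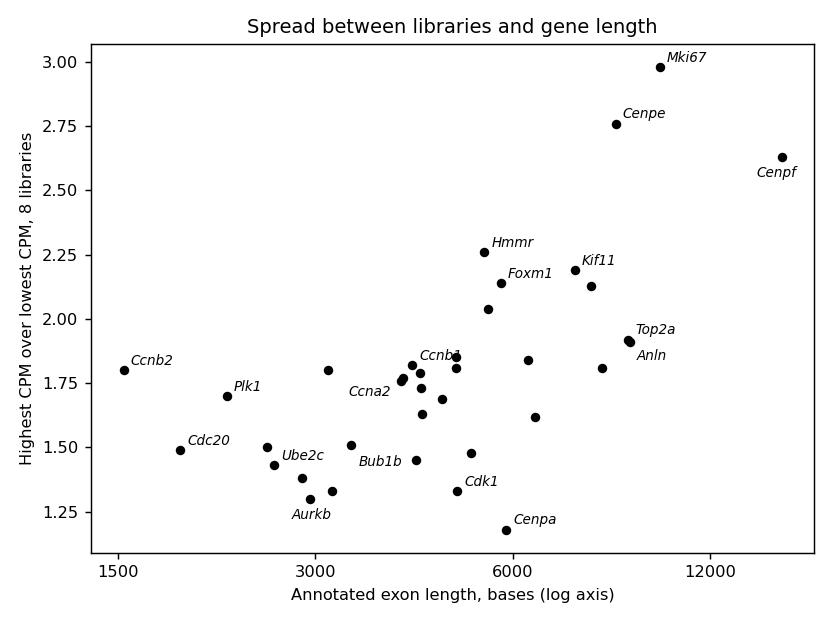
Highest over lowest CPM among the 8 libraries against annotated exon length (bases, log axis) for the 36 members, 1 point per gene. Mki67 (2.98), Cenpe (2.76) and Cenpf (2.63) lie at the top right, and Cenpa (1.18) is the lowest point.

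Other genes of the cell cycle were compared from lists, and no gene of these lists passed the test. None had an unadjusted edgeR p under 0.05, beside 3.53% of all genes tested. Among 75 other G2 and mitosis genes, 46 had a positive fitted difference (median 0.031), and the median was -0.091 without Estrogen 4. The smallest p-values there belonged to Pttg1 (securin, 18.2 ± 1.95 CPM in Estrogen and 21.6 ± 1.24 CPM in Vehicle), Cenpq, a centromere subunit (31.6 ± 3.5 CPM in Estrogen and 37.1 ± 5.35 CPM in Vehicle), and Trip13, which takes the checkpoint complex apart (5.16 ± 1.07 CPM in Estrogen and 6.42 ± 0.774 CPM in Vehicle). Of the 13 DREAM and B-MYB-MuvB subunits 4 were positive (median -0.042), with Lin52 of the MuvB core at -0.22 ± 0.16, E2f5 at -0.18 ± 0.13 and the histone-binding Rbbp4 at -0.17 ± 0.17. Of the 16 core subunits of the anaphase-promoting complex 4 were positive (median -0.059), with Cdc26 at -0.27 ± 0.14, Anapc11, its RING subunit, at -0.21 ± 0.12 and Anapc16 at -0.19 ± 0.12.

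The lists of earlier phases had mostly negative fitted differences, none past the test. Of 44 DNA replication and S phase genes, 6 were positive (median -0.099, and -0.086 without Estrogen 4). Rfc3, of the clamp loader, averaged 30.4 ± 5.73 CPM in Estrogen and 38.6 ± 5.47 CPM in Vehicle, Mcm4, of the replicative helicase, 49.4 ± 5.71 CPM in Estrogen and 59.0 ± 7.59 CPM in Vehicle, and Prim2, of the primase, 16.4 ± 1.93 CPM in Estrogen and 18.6 ± 0.823 CPM in Vehicle. Of 14 G1 cyclin and E2F genes 4 were positive (median -0.065), with cyclin D2 (Ccnd2) at -0.42 ± 0.19, E2f2 at -0.36 ± 0.18 and cyclin E1 (Ccne1) at -0.31 ± 0.28. Of 15 cell cycle brakes 4 were positive (median -0.115), with the antiproliferative genes Btg1 at -0.38 ± 0.21 and Btg2 at -0.31 ± 0.21, and Cdkn1b, the CDK inhibitor p27, at -0.14 ± 0.08. Whether these medians differ from that of the 36 members was not tested.

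In the number 4 libraries the phases parted. Summed over each list, Estrogen 4 held 1.59 times the mean of Estrogen 1 to 3 for the 36 members and 1.27 times for the other G2 and mitosis genes, but 0.916 times for the S phase genes, 0.979 times for the G1 cyclins and E2F genes and 0.834 times for the brakes. Vehicle 4 held 1.32 times the mean of Vehicle 1 to 3 for the members and 1.15 times for the other G2 and mitosis genes, but 0.825 times for the S phase genes, 0.861 times for the G1 list and 0.752 times for the brakes. The S phase sum was 1803, 1370.5, 1619.6 and 1464 CPM in Estrogen 1 to 4, against 1794, 1805, 1690 and 1455 CPM in Vehicle 1 to 4. So the number 4 libraries, with the most G2 and mitosis RNA, were not those with the most S phase RNA. Vehicle 2 was the highest library in the S phase sum and stood at 1109 CPM for the members, above Vehicle 1 and 3. The sums of the lists were not corrected for the length trend.

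**Figure D5:**
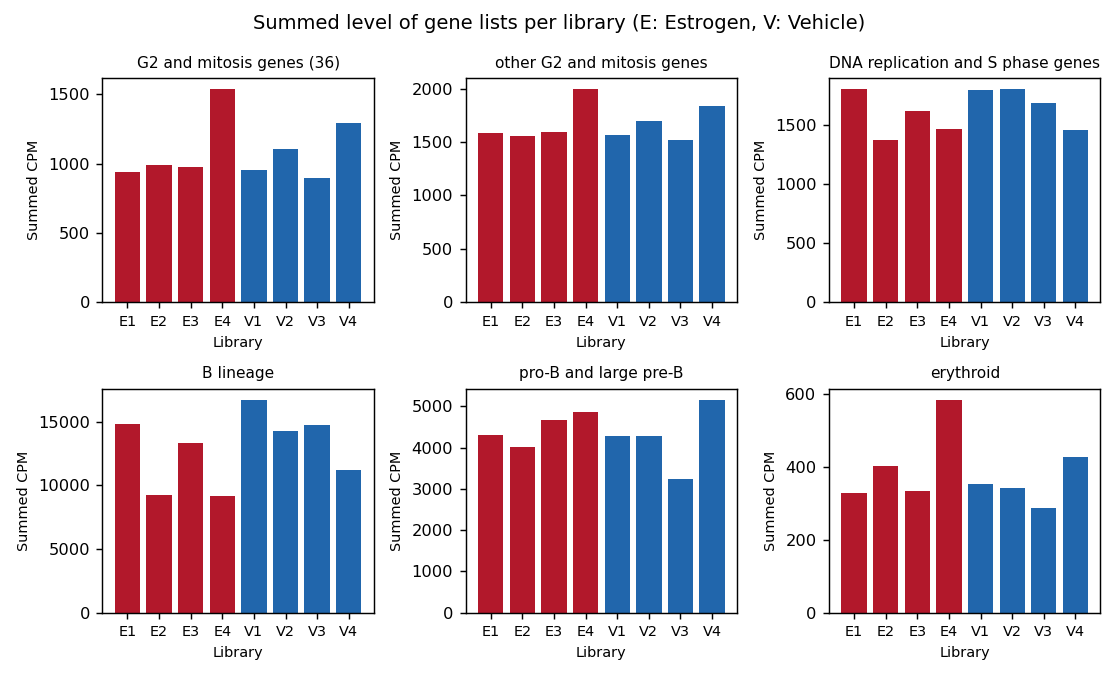
Summed CPM of 6 gene lists in each library (bars from 0, Estrogen E1 to E4 left of Vehicle V1 to V4). E4 (1539 CPM) and V4 (1297 CPM) have the highest bars for the 36 G2 and mitosis genes, whereas they have the lowest B lineage bars of their groups (9191 CPM in E4 and 11207 CPM in V4).

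Markers of cell types also varied between libraries, in part with other libraries than the number 4 ones. The B lineage list (12 genes) summed to 14851, 9279, 13315 and 9191 CPM in Estrogen 1 to 4, against 16745, 14318, 14791 and 11207 CPM in Vehicle 1 to 4, lowest of its group in each number 4 library but nearly as low in Estrogen 2, whose G2 and mitosis sum was 989.7 CPM. All 12 had a negative fitted difference (median -0.247), with a smallest unadjusted edgeR p of 0.0538. Set against that sum, the 36 members stood at 63.5, 107, 73.2 and 167 CPM per 1000 CPM of B lineage genes in Estrogen 1 to 4, against 56.8, 77.4, 60.7 and 116 in Vehicle 1 to 4. The pro-B and large pre-B list (16 genes), for the stages that hold most dividing cells, summed to 4312, 4024, 4674 and 4875 CPM in Estrogen 1 to 4, against 4293, 4272, 3243 and 5162 CPM in Vehicle 1 to 4. As for the summed G2 and mitosis genes, it was highest in the number 4 library of each group and lowest of all in Vehicle 3. Its members differed in this, however, and most of the sum came from Rag1, Smarca4, Bcl7a and Myb, which other cells or stages also express. Il7r, the receptor on which these precursors depend, was at 224, 275, 245 and 383 CPM in Estrogen 1 to 4, against 180.3, 197, 170.5 and 311 CPM in Vehicle 1 to 4, highest in the number 4 libraries. Vpreb1, of the surrogate light chain, was at 44.7, 22, 27.2 and 25.5 CPM in Estrogen 1 to 4, against 37.3, 37.6, 25 and 22.4 CPM in Vehicle 1 to 4, which was not high in the number 4 libraries. Il2ra ran against the sum, lowest of its group in each number 4 library. It was at 92, 57, 95.1 and 53.3 CPM in Estrogen 1 to 4. In Vehicle 1 to 4 it was at 166, 158, 104 and 77.8 CPM. Its fitted difference was -0.77 ± 0.28. Only this gene of the 16 was at an unadjusted edgeR p under 0.05, lower in Estrogen, beside 1.26% of all genes tested. After adjustment, 0 of the 16 passed. The immature and mature B list (14 genes) was negative in 14 of 14 (median -0.443), with 0 past the adjusted test. It had 3 genes lower in Estrogen at an unadjusted edgeR p under 0.05, beside 1.26% of all genes tested. Its sum was 17469, 10604, 13897 and 11625 CPM in Estrogen 1 to 4, against 20128, 17887, 18287 and 12438 CPM in Vehicle 1 to 4, lowest in Estrogen 2. It held 0.831 times the mean of Estrogen 1 to 3 in Estrogen 4 and 0.663 times the mean of Vehicle 1 to 3 in Vehicle 4.

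Other cells that a bead sort could carry along were also examined. The erythroid list summed to 327 to 583 CPM in Estrogen and 286 to 426 CPM in Vehicle, highest in the number 4 libraries, but most of it was Tfrc, the transferrin receptor that dividing cells of many kinds use (504 CPM in Estrogen 4 and 385 CPM in Vehicle 4). Of the defining erythroid genes, Klf1 was at most 0.367 CPM in Estrogen and 0.234 CPM in Vehicle, and Rhag had 0 reads in all 8 libraries. The globin genes Hbb-bs and Hba-a1 were highest of all 8 libraries in Estrogen 4, at 36.4 and 16.1 CPM. In Vehicle 4 they were at 10.6 and 5.66 CPM, below Vehicle 1 (18.4 and 8.34 CPM). Alas2 and Hba-a2 were the highest of their group in both number 4 libraries. They were at 1.14 and 4.72 CPM in Estrogen 4 and at 0.779 and 1.38 CPM in Vehicle 4. Gata1 went the other way, lowest of all in Estrogen 4 at 0.602 CPM. The T and NK list was 1.71 times the mean of Estrogen 1 to 3 in Estrogen 4 and 1.45 times the mean of Vehicle 1 to 3 in Vehicle 4, with Cd3e, the defining T cell gene, at 0.145 to 0.374 CPM in Estrogen and 0.225 to 0.546 CPM in Vehicle. Most of the sum was Cd8a (133 CPM in Estrogen 4 and 91.4 CPM in Vehicle 4) and Cd4 (100.5 and 74.4 CPM). Between the groups, 2 of 11 tested genes were positive (median -0.757) and 0 passed the adjusted test. At an unadjusted edgeR p under 0.05, 3 were lower in Estrogen, beside 1.26% of all genes tested. Groups did not overlap in 2, both lower in Estrogen, beside 0.771%. The plasmacytoid dendritic cell list was 1.36 times the mean of Estrogen 1 to 3 in Estrogen 4 and 1.27 times the mean of Vehicle 1 to 3 in Vehicle 4. The neutrophil list ran from 3385 to 9497 CPM in Estrogen and from 3278 to 9053 CPM in Vehicle, lowest of each group in its number 4 library and high in Estrogen 2, Estrogen 3 and Vehicle 3. The neutrophil precursor list, for stages that still divide, ran from 77.5 to 230.4 CPM in Estrogen and from 101 to 204 CPM in Vehicle, with a median fitted difference of -0.359, and was lowest of each group in its number 4 library. The monocyte and macrophage list (9 genes) had the highest median fitted difference of the marker lists, 0.483, with 7 of 9 positive. At an unadjusted edgeR p under 0.05, Cd68, C1qa and C1qc were higher in Estrogen, beside 2.27% of all genes tested. Ly6c2 was lower, beside 1.26%, and 0 of the 9 passed the adjusted test. The sum of the list ran from 1593 to 3007 CPM in Estrogen and from 1522 to 2501 CPM in Vehicle. The part that these cell types or the length trend played in the level of the G2 and mitosis genes was not tested.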

How the data were processed

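RNA-seq was performed by the submitters on 4 Estrogen and 4 Vehicle libraries, prepared with the Illumina TruSeq kit from Trizol RNA per the labels. The authors deposited raw read counts per Ensembl gene, not normalized. Their processing notes name CASAVA, Bowtie 0.12.2 and mm10. For the read counter, annotation, strand setting and multiply mapped reads: not given in the sources used here. This aligner places no read across a splice junction, so genes with short exons or processed pseudogenes may be undercounted or share reads.

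Columns were assigned to samples by the description in the labels. Of 46983 identifiers, 46488 (98.9%) matched GENCODE M21 on GRCm38. Counts were fitted in R 4.3.3 with edgeR 4.0.16 (filterByExpr, TMM, robust glmQLFit, two-sided quasi-likelihood F-test, Benjamini-Hochberg adjustment over 15175 genes, threshold 0.05). The genes kept held 99.9% of counts and the biological coefficient of variation was 22.7%. Values are TMM-scaled CPM, means ± SD, and fitted log2 differences ± SE. Exact permutation tests over libraries used log2 CPM with a pseudocount of 0.1. The procedure was tested on simulated counts before use. Members and lists (327 symbols, 326 found) were chosen with earlier results of these data known. Named in full are Mki67, Top2a, Ccna2, Ccnb1, Cdk1, Foxm1, Plk1, Aurkb, Bub1b, Cdc20, Kif11 and Ube2c, plus the 3 members with the smallest p and the 2 with the largest difference (which adds Cenpa and Anln), and up to 3 genes per pathway list by smallest p. Promoters were to be printed for up to 6 members with CHR within 150 bases upstream.

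Alternatives were DESeq2 1.42.0 size factors, library totals, no low-count filter, at least 1 CPM in 4 libraries, limma-voom (3.58.1) with and without sample weights, the DESeq2 Wald test, non-robust shrinkage, the replicate block, each library left out and a threshold of 0.1. Leaving out Estrogen 4 and Vehicle 4 together and a gene length offset were added after the data were seen. Length deviations compare each library with the others of its group. Python 3.11.15 with matplotlib 3.10.9 drew the figures.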

Additional observations from a re-analysis of the deposited data

Results flagged for a closer look

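In a group of 4 libraries, a library was marked when its gap to the nearest other was, relative to the range of the group, above Dixon's 95% critical value, which chance gives in about 1 of 20 groups. Of the 72 gene and group pairs of the 36 members, 12 were marked, and in each of the 12 the marked library was Estrogen 4. The genes are not independent of each other, since they were counted in the same library.

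Among the cyclins and mitotic kinases, Estrogen 4 held 55.9 CPM of Ccna2 against 34.2 to 37.2 CPM in Estrogen 1 to 3, 37.0 CPM of Ccnb1 against 21.9 to 23.0 CPM, and 18.6 CPM of Plk1 against 11.6 to 12.6 CPM. For the checkpoint and its target, it held 19.4 CPM of Bub1 against 11.2 to 12.1 CPM, 53.0 CPM of Bub1b against 36.4 to 38.0 CPM, and 36.1 CPM of Ube2c against 25.2 to 26.9 CPM. On the spindle, it held 89.1 CPM of Kif11 against 45.3 to 48.9 CPM, 20.1 CPM of Kif4 against 11.3 to 11.4 CPM, 43.2 CPM of Nusap1 against 25.3 to 27.4 CPM, and 30.2 CPM of Hmmr against 15.1 to 17.5 CPM. Of the proliferation marks, it held 259.6 CPM of Mki67 against 106 to 128 CPM, and 191 CPM of Top2a against 113 to 119 CPM.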

How the results depend on the processing

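Of the 36 members, 0 passed an adjusted p of 0.05 under every alternative run, and all 36 were tested in each. Among all genes, the count called was 1 in place of 0 with the DESeq2 Wald test, with limma-voom with sample weights and with the replicate block. Members below an unadjusted p of 0.05 numbered 1 with the replicate block, beside 14.3% of all genes tested. They numbered 1 without Estrogen 4 and Vehicle 4, beside 6.38%. With limma-voom with sample weights there were 2, and 0 to 1 when single libraries were left out. The shares over all genes in these last fits are not given here, so nothing is read from the counts. The number of members with a positive difference (23) was 12 with limma-voom with sample weights, 13 without Estrogen 4 and Vehicle 4, 31 with library totals (which moved the all-gene median to 0.0458), and 5 to 29 when single libraries were left out, with 5 without Estrogen 4 and 15 without Vehicle 3. Members whose groups did not overlap numbered 4 without Estrogen 4 and Vehicle 4, beside 12% of all genes in that fit. When single libraries were left out there were 0 to 2. Groups with fewer libraries fail to overlap more often, and the shares over all genes in those fits are not given here. The median of the members, 0.048, ran from -0.128 to 0.131 when single libraries were left out and was -0.059 with limma-voom with sample weights.

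A total of 10 members kept the sign of their difference in all 19 alternative fits, 5 positive (Foxm1, Kif2c, Prc1, Ckap2l and Anln) and 5 negative (Aurkb, Cdca8, Cenpa, Ndc80 and Spc25). The lowest adjusted p over members and fits was 0.24, for Foxm1 with the replicate block. The sources used here do not say whether the replicate numbers pair the libraries. Same-numbered libraries deviated together for numbers 1 (correlation 0.674) and 4 (0.554) but not for 2 (-0.131) or 3 (0.08). Only numbers 1 and 4 were each other's best match, so a pairing is neither shown nor excluded. With the block, 14.3% of all genes tested were below an unadjusted p of 0.05, 21 members were positive and their median was 0.044.

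Each member had at least 88 reads in each library, above the detection floor of 3 reads. A 1.5-fold difference lay inside the 95% interval of 12 members.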
